A study of Mus musculus with 2 samples.

Results

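The genes described here encode extracellular proteins of the cochlea: the 3 tectorial membrane genes Tecta, Tectb and Ceacam16, the otogelin genes Otog and Otogl, the attachment protein genes Strc and Otoa, and the proteoglycan gene Epyc. They were chosen by symbol, and all 8 were found once each among the 28002 genes of the annotation that accompanies the series. The choice applied no cutoff to a measured value, but it was made with earlier results of these data known. The series holds 2 single-cell libraries, 1 per group with no replicate, from cochleae of Myo15-Cre;Ai14 mice at postnatal day 8. Ai14 is a reporter that makes the red protein tdTomato after Cre recombination, Myo15 drives Cre in hair cells, and tdTomato-positive cells were sorted before droplet capture and 3′ end sequencing. The GFP group received an Anc80 virus carrying GFP, and the Ikzf2 group received an Anc80 virus carrying Ikzf2, a transcription factor gene. The analysed file is a gene annotation on mouse assembly GRCm38, so the values below are properties of gene models. They have no sampling error, and the expression, depth and marker levels of either library were not analysed here.

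The tectorial membrane is a sheet of extracellular matrix that lies over the hair bundles of the organ of Corti and takes part in bending them when sound moves the cochlear partition. Alpha-tectorin (Tecta) and beta-tectorin (Tectb) are its main non-collagenous proteins and are polymerised through zona pellucida domains, a module shared with egg coat proteins and uromodulin. Ceacam16 encodes a secreted immunoglobulin-type protein of the same matrix. Otogelin (Otog) and otogelin-like (Otogl) are large cysteine-rich relatives of mucins and von Willebrand factor found in the acellular membranes of the inner ear. Stereocilin (Strc) links the tips of outer hair cell stereocilia to each other and to the tectorial membrane, and otoancorin (Otoa) attaches the membrane to the spiral limbus. Epyc encodes epiphycan, a small leucine-rich proteoglycan of cochlear supporting cells.

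The coding sequences of 6 of these genes could be set side by side in pairs, and the exon junctions of each pair are shown first because their intron positions are the pattern that these models share. Each line has 15 coding bases on either side of an exon junction, read from GENCODE M21 transcripts whose coding intervals are those of the annotation. Capitals mark the codon that the intron splits, or, where the intron lies between codons, the codon on each side of it. The Otog junction spans chromosome 7, 46309854 to 46309969, on the plus strand, and the Otogl junction spans chromosome 10, 107762510 to 107763184, on the minus strand. The Strc junction spans chromosome 2, 121364420 to 121364512, on the minus strand, and the Otoa junction spans chromosome 7, 121156525 to 121160330, on the plus strand. The Tecta junction spans chromosome 9, 42330325 to 42330924, on the minus strand, and the Tectb junction spans chromosome 19, 55193872 to 55194659, on the plus strand.
Otog, before coding exon 56: aggagcaataccCCTGTGaacctggtgtct
Otogl, before coding exon 58: gtaagccaaagcTCTATTagtgtggcatct
Strc, before coding exon 28: gctcccaagtttGCAGTGgtcttcaacccc
Otoa, before coding exon 27: ggtgaggtattcAAAGAGctgtccacggag
Tecta, before coding exon 23: gaaggagctgcagaGCCtctaattcttcag
Tectb, before coding exon 10: tctgtgacttctcaGATgttcttcttcacc

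In Otog, Otogl, Strc and Otoa the intron shown falls between codons (phase 0), whereas in Tecta and Tectb it follows the first base of a codon (phase 1). The bases around the junction differ within each pair, while the place of the intron in the reading frame is the same.

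The coding sequences end as follows, with the stop codon in capitals. They are shown because the 3′ UTR lengths given below are counted from the base after it.
Tecta: ttgatctataaatcaggcgcaacctcaTAA
Tectb: ctgatgctggggacctgggctgtgttgTAG
Ceacam16: gtggagctacaggtggcccccctggagTAG
Otog: cctacagactgtgcctgccagtggtccTGA
Otogl: ccgatagactgcacatgccagtggaacTGA
Strc: cccgtcagcatttttggccacctattaTGA
Otoa: accctgctgcttctgacggccaagtccTGA
Epyc: cctcgtttgcccattgggagttttatcTAA

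Otog, Otogl, Strc and Otoa stopped with TGA, Tecta and Epyc with TAA, and Tectb and Ceacam16 with TAG. The share of each stop codon over all genes is not given here, so no trait of these genes is read from it.

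The medians of the 8 genes for coding length and exon number lay above those of all protein-coding genes, while Epyc and Tectb had shorter coding sequences than the median gene and Ceacam16 had fewer exons. Unless stated otherwise, values are for the transcript with the longest coding sequence of each gene, and coding lengths include the stop codon. The median coding length of the members was 4422 bases (969 to 8736), beside 1170 bases over the 21992 protein-coding genes with a coding transcript. The median exon number was 26.5 (6 to 58) beside 7, and the median gene span was 54349 bases (9203 to 149912) beside 16536. The longest 3′ UTR of each gene had a median of 425.5 bases (87 to 1605) beside 851 bases over the 19933 genes that have one. For the transcript with the longest coding sequence the 3′ UTR median was 227 bases beside 732 over 19655 genes. With the models of GENCODE M21 the median of the longest 3′ UTR was 893.5 bases beside 961 over 21021 genes. Among the members this value differed in Otogl alone, with 1779 bases there against 87. With the median over the protein-coding transcripts of each gene, the median exon number was 16. These values describe a chosen list and are given without a test.

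**Figure D1:**
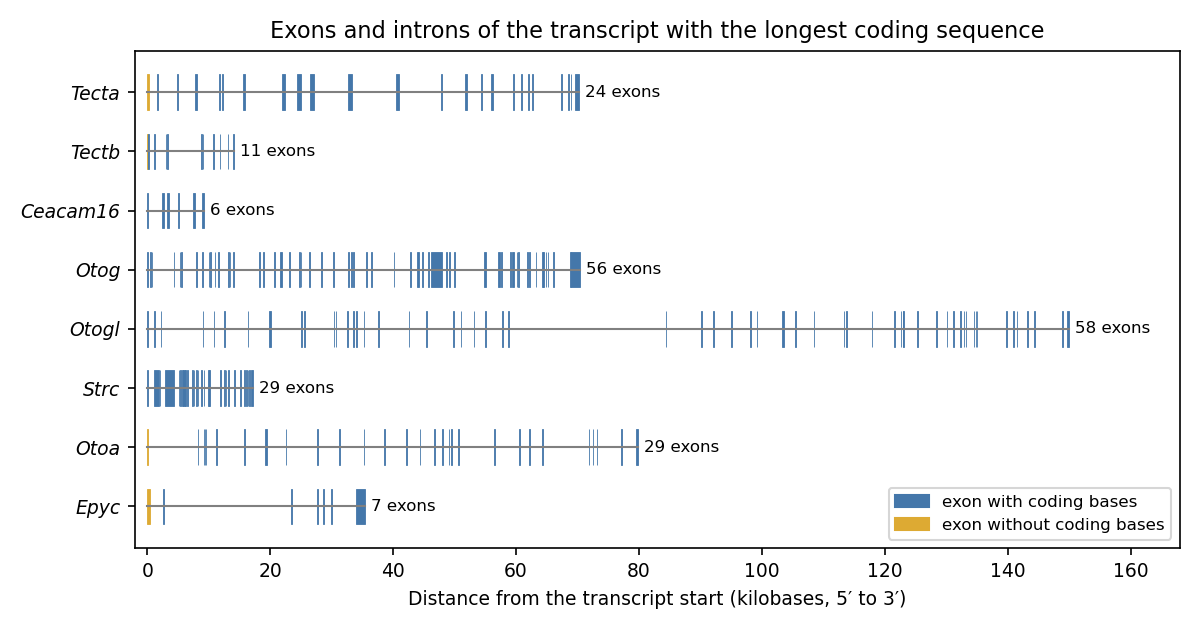
Exons (boxes, to scale) and introns (lines) of the transcript with the longest coding sequence of each gene, against the distance from its start in kilobases. Otogl is spread over the widest region with 58 exons, whereas Strc holds 29 exons in a short region and Ceacam16 has 6.

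Tecta (ENSMUSG00000037705) occupied 70311 bases of chromosome 9, from 42329619 to 42399929 on the minus strand. Its transcript Tecta-001 had 24 exons and 6468 coding bases, enough for 2155 amino acids. Only 1.66% of protein-coding genes had a longer coding sequence. The exon with the most coding sequence was the tenth coding exon, with 602 coding bases, and the neighbouring exons of this stretch were similar in size, from 413 to 602 bases over coding exons 6 to 11. Cysteine codons made up 6.77% of the Tecta codons, beside a median of 2.10% over 20091 genes, and 2.92% of these genes had a higher share. The coding sequence also held 33 codon triplets that encode an N-glycosylation motif (asparagine, any residue but proline, then serine or threonine). The other 7 genes had lower counts. Per 100 codons Tecta had 1.53 such triplets, fewer than the 1.64 of Ceacam16.

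Tecta had 3 transcripts. Tecta-002 also had 24 exons but coded for 15 bases fewer, because exon 16 began 15 bases further downstream. The reading frame was kept, with 5 codons fewer. The bases found in Tecta-001 alone lay on chromosome 9 from 42343910 to 42343924 and are shown in capitals, with 7 coding bases on each side, because they are the only coding difference between the isoforms.
Tecta-001, extra bases of exon 16: agaagagACCTCTCGCCCCCAGctgcaac
The third transcript, Tecta-003, had 9 exons and no coding sequence. The 3 annotated 3′ ends lay close together, since Tecta-002 ended 73 bases before Tecta-001 and Tecta-003 ended 3 bases beyond it. The 3′ UTR had 603 bases in Tecta-001 and 530 in Tecta-002.

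Tectb (ENSMUSG00000024979) was much smaller. It lay on the plus strand of chromosome 19 from 55180733 to 55196313 and spanned 15581 bases. It had 6 transcripts, of which 2 had both a start and a stop codon. Tectb-001, with the support level 1 (the best), had 10 exons, 990 coding bases for 329 amino acids and a 3′ UTR of 1605 bases. Tectb-004, with the support level 5 (the weakest), had 11 exons, 1020 coding bases for 339 amino acids and a 3′ UTR of 161 bases. As in Tecta, the isoforms differed in coding sequence at an exon start. Exon 5 of Tectb-004 began 30 bases earlier, on chromosome 19 from 55183933 to 55183962, which lengthened the coding sequence by 10 codons. The intron before it had phase 2, so the first base shown completes a codon begun in the exon before.
Tectb-004, extra bases of exon 5: TCCTTATGCAAAATTCTCTCCCCTTTTCAG
The extra stretch of either gene ended in CAG. The 3′ ends of Tectb-001 and Tectb-004 lay 1444 bases apart, and the last 500 bases of Tectb-001 held no coding sequence, whereas those of Tectb-004 held 339 coding bases over 5 exons. Tectb had 13 cysteine codons, or 3.83% of its codons, a lower share than in Tecta.

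Ceacam16 (ENSMUSG00000014686) had the shortest span, 9203 bases of chromosome 7, from 19852097 to 19861299 on the minus strand. Ceacam16-001 had 6 exons and 1281 coding bases for 426 amino acids. The 4 internal coding exons had 345, 276, 279 and 327 bases, all bounded by introns of phase 1 on both sides. Such an exon is called symmetric, because leaving it out keeps the reading frame. All 5 introns of the coding sequence were of phase 1, beside 32.4% of the 175983 such introns of protein-coding genes. The last coding exon contributed 11 bases. Ceacam16-002, a model that is marked as incomplete at its start, coded for 369 bases and ended 1 base from Ceacam16-001. Cysteine codons were few, with 7 of 426 codons (1.64%).

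Otog (ENSMUSG00000009487) and Otogl (ENSMUSG00000091455) were the members with the most exons. Otog lay on the plus strand of chromosome 7 from 46240987 to 46311434 and had 56 exons and 8736 coding bases for 2911 amino acids. Otogl, read from the minus strand of chromosome 10 (107762223 to 107912134), had 58 exons and 6978 coding bases for 2325 amino acids. Only 0.541% of protein-coding genes had more exons than Otog, and 0.487% had more than Otogl. Otogl was the more spread out, with a span of 149912 bases against 70448 and a longest intron of 25459 bases against 4814. Each had 1 annotated transcript, as 36.5% of protein-coding genes did, and all exons of both held coding sequence. Both of these transcripts, Otog-201 and Otogl-001, had the support level 5 (the weakest). In the deposited annotation, the exon numbers, intron phases and transcript ends of both genes rest on these models alone.

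The coding exons of Otog and Otogl were alike in intron phase at both ends and often in length. Counted from the 5′ end, the first 35 introns had the same phase in both genes, and counted from the 3′ end, the last 18 did. Together these were 53 of the 55 introns of Otog and 53 of the 57 of Otogl. Of the 34 exons between matched introns at the 5′ side, 20 had the same number of bases in both genes, as did 10 of the 17 at the 3′ side, and the last 6 coding exons had 179, 105, 120, 46, 80 and 201 bases in both. Among the 21991 other protein-coding genes compared, Otogl alone matched the last introns of Otog that far. The next was Enox1, with 13 matching introns, named here after its value was seen. Translated and aligned from end to end, 957 of 2291 aligned residues (41.8%) were identical.

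The genes differed in exon number and length in the middle. Between the matched runs Otog had 3 coding exons with 2081 bases, and Otogl had 5 with 431 bases. Otog coding exons 36 to 38 had 1766, 169 and 146 bases. Their flanking intron phases were those of Otogl coding exons 37 to 39, with 47, 178 and 143 bases. Otogl coding exons 36 and 40, with 39 and 24 bases, were symmetric and lay on either side of these. Most of the Otog stretch was coding exon 36, with 1766 bases, a length that 4.26% of protein-coding genes exceed with their longest coding exon. Serine and threonine codons made up 26.2% of its 588 whole codons, beside 13.8% in the rest of the gene. It held 1 cysteine codon, whereas 8.91% of the codons in the rest of Otog encoded cysteine. The whole Otog stretch held 11 cysteine codons, a share of 1.59% beside 8.88% in its matched runs. The shorter Otogl stretch also held 11, a share of 7.69% beside 9.17% in its matched runs. Over the whole coding sequence, 208 codons of Otog (7.15%) and 211 of Otogl (9.08%) encoded cysteine, and 2.36% and 1.17% of genes had a higher share.

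**Figure D2:**
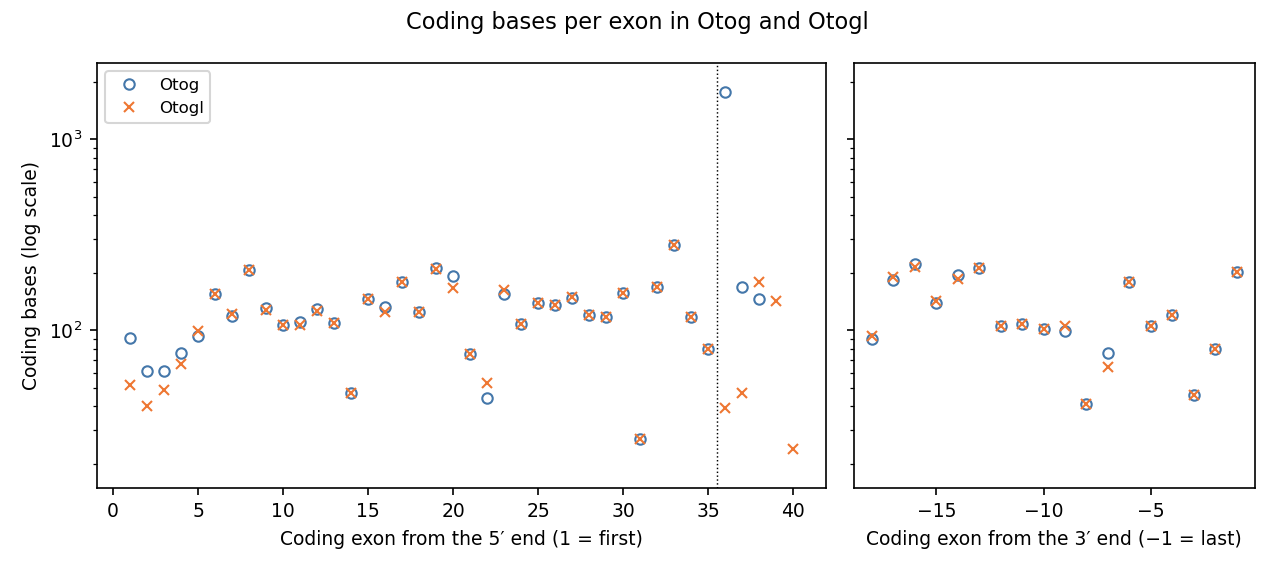
Coding bases of each exon of Otog (circles) and Otogl (crosses) on a log axis, counted from the first coding exon (left) and back from the last (right). The dotted line marks the end of the first 35 exons. Circles and crosses fall together for most exons on both sides, and the Otog exon with 1766 bases stands alone after the line.

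Strc (ENSMUSG00000033498) and Otoa (ENSMUSG00000034990) shared the 3′ part of their coding structure. Strc was on chromosome 2, minus strand, between 121363728 and 121387168, with 29 exons and 5430 coding bases for 1809 amino acids. Otoa lay on the plus strand of chromosome 7 from 121081650 to 121163097, with 29 exons, 28 of them coding, and 3414 coding bases for 1137 amino acids. The last 17 introns of the coding sequence had the same phase in both. The exons between them were less alike in size than in the otogelin genes, with 5 of 16 of equal length and differences of up to 102 bases. Of the aligned residues, 27.5% (279 of 1016) were identical.

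The last 18 coding exons held similar amounts of coding sequence, 2223 bases in Strc and 2434 in Otoa. The difference lay upstream, where Strc had 3207 bases in 11 coding exons and Otoa had 980 bases in 10. In Strc most of this was in coding exon 4, with 1378 bases, and coding exon 2, with 786. Exon 4 held 21 of the 40 cysteine codons of Strc, which were 4.58% of its codons beside 1.41% in the rest. Otoa had no long coding exon, and its longest had 236 bases.

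Relatives of Strc, Otoa, Tecta and Tectb with similar intron phases are named here after their values were seen. Msln, the mesothelin gene, matched the last 14 introns of both Strc and Otoa, and Mslnl, the mesothelin-like gene, matched the last 13. Apart from these and the other member of the pair, no gene matched more than 9 introns of Strc or Otoa. Tecta and Tectb matched each other over the last 6 introns, and 9 further genes matched Tecta that far. These included Umod, the uromodulin gene, with 8 introns in common with Tecta, and Zpld1, a zona pellucida-like gene that matched all 9 introns of Tectb. The other 7 were not on the list of zona pellucida domain genes, and 1 of them, Sh3yl1, matched Tecta as far as Umod did. Aatk and Lmtk2, also not on the list, matched 8 of the 9 introns of Tectb, further than Umod or Tecta, which matched 6. Of the 12 genes listed for the zona pellucida domain, Umod and Zpld1 were the 2 that matched 6 or more introns. Tecta had 16 coding exons with 5383 bases upstream of the matched part, and Tectb had 3 with 410 bases. Within the matched part, 1 of 5 internal exons had the same length, 163 bases in both.

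**Figure D3:**
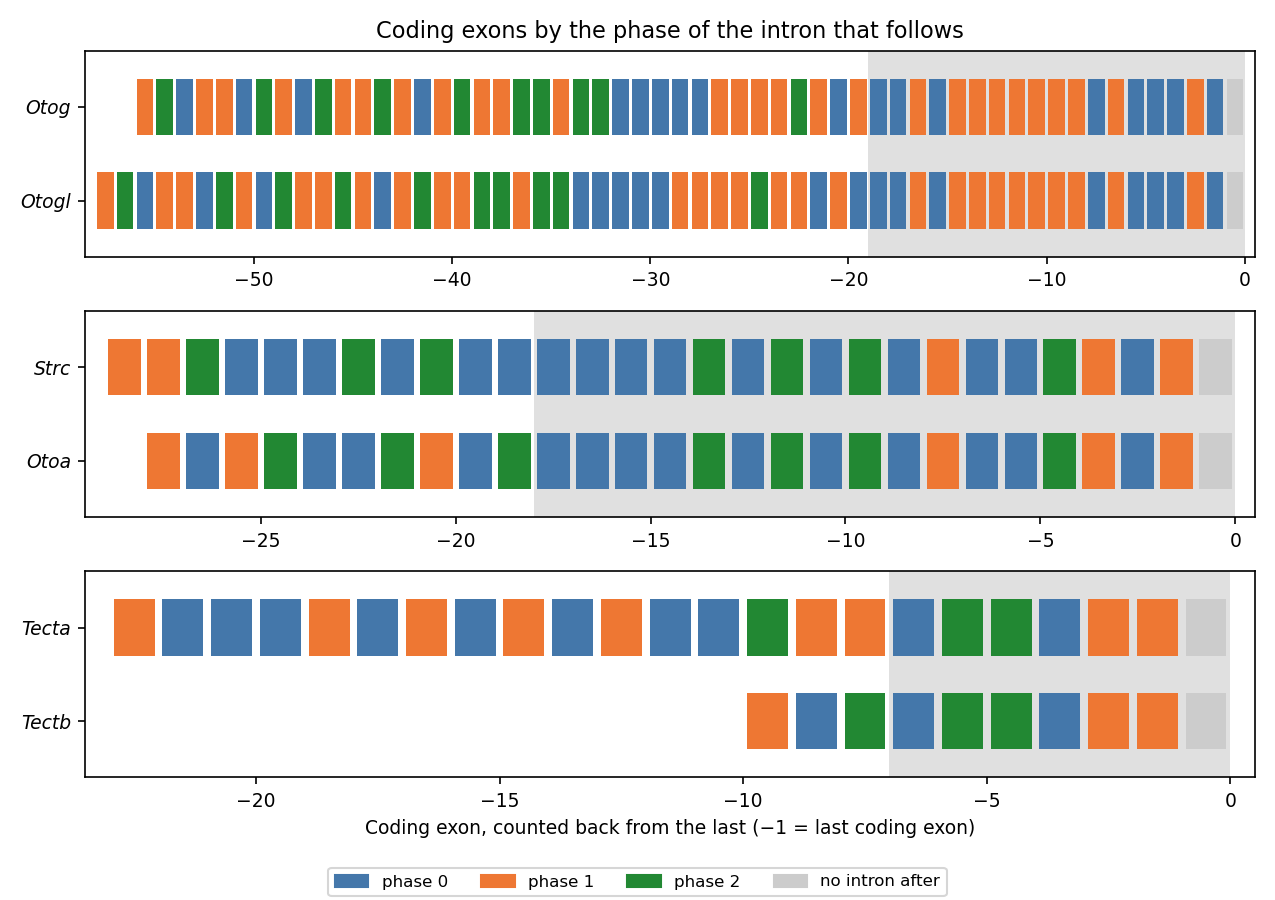
Coding exons of the 3 pairs as boxes of equal width, counted back from the last, coloured by the phase of the intron that follows. Grey shading covers the exons from the one just before the first matched intron to the 3′ end. There were 18 matching introns for Otog and Otogl, 17 for Strc and Otoa and 6 for Tecta and Tectb.

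None of the 7 mucin and von Willebrand factor genes of the list matched the last 6 introns of Otog or Otogl. Vwf matched 5, and the other 6 matched none. Their coding sequences ran from 2770 bases in Muc2, whose model lacks a start or a stop codon, to 15435 bases in Sspo, the subcommissural organ spondin gene. The list named 8 genes, and Muc19 was not found under its symbol.

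Epyc (ENSMUSG00000019936) lay on the plus strand of chromosome 10 from 97644068 to 97682454. Both of its transcripts coded for the same 969 bases, or 322 amino acids, from 6 coding exons. They differed in untranslated sequence alone. Epyc-001 had a 5′ UTR of 386 bases and a 3′ UTR of 1184 bases, and Epyc-002 had 124 and 630 bases. Its 5 coding introns had the phases 0, 1, 1, 0 and 0. Of 10 other small leucine-rich proteoglycan genes listed, Ogn (osteoglycin) and Optc (opticin) had the same last 5 phases, and in both the last 4 coding exons equalled those of Epyc in length, with 159, 203, 96 and 171 bases. The same 5 phases closed the coding sequence of 85 genes in all, 0.387% of those compared. Of the aligned residues, 44.0% were shared with Optc and 40.7% with Ogn.

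Epyc lay downstream of 3 other genes of its family on the same strand: Dcn (decorin) from 97479500 to 97518162, Lum (lumican) from 97565501 to 97572703 and Kera (keratocan) from 97607205 to 97613688. The gap from Kera to Epyc was 30379 bases. These neighbours were unlike Epyc in coding structure, since Lum and Kera had 1 coding intron each and Dcn, with 6, matched in the last intron only. Of the listed relatives, those with the phase run of Epyc lay on chromosomes 13 (Ogn) and 1 (Optc). Among the 8 relatives listed for Ceacam16, all on chromosome 7, Ceacam18 matched its 5 phase 1 introns, as did 251 of 21991 genes in all (1.14%).

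The 3′ ends of the models bear on the assay, because the droplet kit reads 3′ ends. The 27 transcripts of the 8 genes included 17 protein-coding models, of which 11 had both a start and a stop codon, 4 with a retained intron, 3 marked for nonsense-mediated decay and 3 processed transcripts. The 3′ UTR was short in the attachment protein genes and in Ceacam16: 166 bases in Otoa-001, 248 bases in Strc-001 and 206 bases in Ceacam16-001. Otogl-001 had the shortest, 87 bases, and 94.0% of genes with a 3′ UTR had a longer one. In GENCODE M21 the same Otogl coding sequence is followed by a 3′ UTR of 1779 bases, so the values for its 3′ end hold for the deposited model. Otog-201, with 1265 bases, stood apart from its close relative in this respect.

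The last 500 exonic bases were mostly coding in some members and wholly untranslated in others. Coding sequence made up 413 of these bases in Otogl-001, 334 in Otoa-001, 294 in Ceacam16-001 and 252 in Strc-001, and it made up 0 in Tecta-001, Otog-201 and Epyc-001. The window crossed exon junctions where coding bases were many: it covered 4 exons in Otogl-001, 3 in Otoa-001 and Strc-001 and 2 in Ceacam16-001. In Tecta-001, Otog-201 and Epyc-001 it lay in the last exon.

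**Figure D4:**
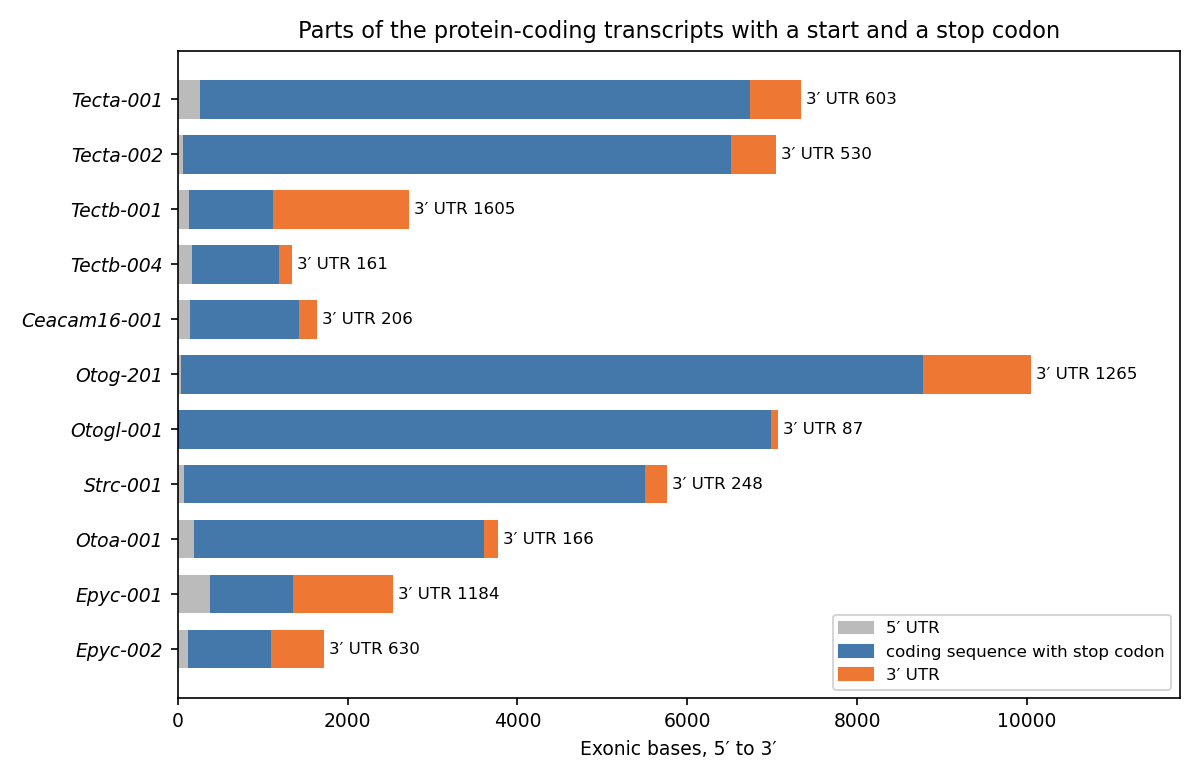
Exonic bases of the 5′ UTR (grey), coding sequence (blue) and 3′ UTR (orange) in the 11 protein-coding transcripts with a start and a stop codon. The 3′ UTR runs from 87 bases in Otogl-001 to 1605 bases in Tectb-001.

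A poly(A) signal was searched as AATAAA or ATTAAA on the transcript strand within the last 40 bases of each model. It was found in the transcript with the longest coding sequence of 3 of the 8 genes, Tecta, Otog and Otoa, beside 67.8% of 18334 protein-coding genes. It began 21 bases from the end in Tecta-001 and 27 bases in Otog-201, both with AATAAA, and 29 bases in Otoa-001, with ATTAAA. The better supported Tectb-001 had AATAAA 30 bases from its end, and Epyc-002 had it 22 bases from its end, whereas the longer Epyc-001 had neither hexamer there. No model of Ceacam16 or Otogl had either hexamer in that stretch. A match describes letters and not the use of a site.

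Otoa and Strc had mostly noncoding or incomplete models beside 1 complete one each. Of the 7 Otoa transcripts, Otoa-001 alone had both a start and a stop codon. Otoa-004, Otoa-005 and Otoa-006 were marked as incomplete at the 3′ end and stopped between 60369 and 71520 bases before the end of Otoa-001. Otoa-002, a nonsense-mediated decay model, ended 2329 bases before it. Otoa-007, a model of 1 exon with 4347 bases, set the start of the gene row. Of the 5 Strc transcripts, Strc-001 alone was protein-coding, and Strc-002, a retained intron model of 4 exons, extended the gene to 121387168, beyond the start of Strc-001 at 121380940.

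The last 500 bases of every transcript of the 8 genes were free of same-strand exons from other genes (0 of 8, beside 3.24% of 22052 protein-coding genes). With either strand counted, 3 of the 8 genes held such an exon, beside 14.3% of protein-coding genes. The same 3 genes, Strc, Epyc and Ceacam16, were those whose gene rows overlapped another gene row at all, beside 28.7% of protein-coding genes, and whose exons did, beside 21.3%. All 3 partners lay on the opposite strand. With the GENCODE M21 models, 5 of the 8 gene rows were overlapped, Tecta and Tectb being the further 2, beside 46.6% of 21951 protein-coding genes there. In those models 1 gene, Tectb, had a same-strand exon in the last 500 bases of a transcript, beside 5.41% of genes. That transcript was Tectb-006, a model marked as incomplete at its start, and not Tectb-001 or Tectb-004. An exon of another gene on either strand lay in the last 500 bases of 4 genes, beside 19.7%.

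Strc and Ckmt1, a mitochondrial creatine kinase gene, met tail to tail. Ckmt1 ended at 121363737 on the plus strand, 10 bases into the last exon of Strc, and these 10 bases were 3′ UTR in Strc-001. Epyc overlapped Gm10754, a gene of 1 exon with 315 coding bases from 97682102 to 97682416, which lay wholly within the last exon of Epyc-001. It covered 63.0% of the last 500 bases of Epyc-001 and none of those of Epyc-002, which ends 554 bases earlier. Ceacam16 overlapped Gm19345, a gene of 4 exons from 19852003 to 19858350 with 375 coding bases. Its exons covered 104 of the last 500 bases of Ceacam16-001 and 276 of its coding bases, which is the length of the third coding exon. The strand setting used for counting reads is not given in the sources used.

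**Figure D5:**
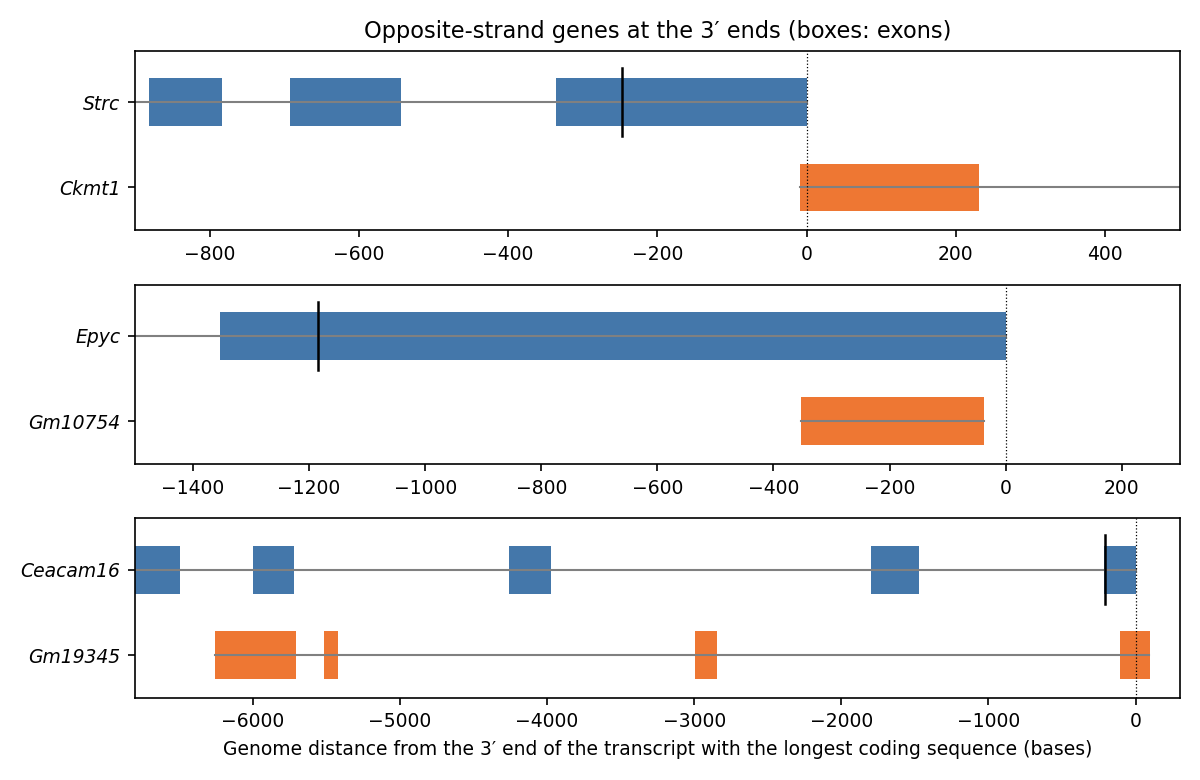
Exons (boxes) of Strc, Epyc and Ceacam16 and of the opposite-strand gene at each 3′ end, against genome distance in bases from the 3′ end of the transcript with the longest coding sequence (dotted line). The black bar marks the stop codon. Ckmt1 touches Strc over 10 bases, Gm10754 lies within the last exon of Epyc, and exons of Gm19345 cover the end and the third coding exon of Ceacam16.

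The nearest genes that did not overlap included Ush1c, the harmonin gene, 2483 bases from Otog at lower coordinates and on the opposite strand, and Ptprq, a hair bundle phosphatase gene, 42171 bases from Otogl at lower coordinates and on the same strand. At higher coordinates the nearest gene was Myod1 for Otog, at 65039 bases, and Ppp1r12a for Otogl, at 250265. Strc lay between Ppip5k1, 8331 bases away, and Catsper2, a sperm ion channel gene, 5462 bases away. Tecta lay between Sc5d at 65318 bases and Tbcel at 12386, and Tectb between Gpam at 81281 bases and Gucy2g at 1983. Otoa lay between Mettl9 at 3320 bases and RP23-11L1.3 at 94261, and Ceacam16 between RP23-191I16.3 at 4487 bases and RP23-191I16.4 at 6821. Ccer1 lay 10604 bases beyond Epyc.

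A search of the GENCODE M21 transcripts for copies in the same orientation, with a minimum identity of 80% and a minimum length of 100 bases, found none for the last 500 bases of the 8 genes and none for their coding sequences. The alignments of Otog with Otogl reached 74.2% over 93 bases. The longest for Tecta was with Sned1, at 68.0% over 294 bases.

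Among the 51 family and matrix genes found, none had a same-strand exon of another gene in its last 500 bases. The share over all protein-coding genes was 3.24%. An exon of another gene on either strand lay there in 4 of the 51, beside 14.3% of protein-coding genes. The coding length ran from 1248 bases in Zpld1 to 5874 in Dmbt1 for zona pellucida domain genes, so Tecta, with 6468 bases, exceeded all 12. For small leucine-rich proteoglycan genes it ran from 897 bases in Ogn to 1272 in Omd, a range that holds Epyc. Relatives of Ceacam16 had from 705 bases in Ceacam15 and Ceacam9 to 1734 in Ceacam20, and mesothelin relatives had 1878 bases in Msln and 2058 in Mslnl, both shorter than Strc and Otoa. Other inner ear matrix genes ran from 270 bases in Otos, the otospiralin gene, to 5415 in Col11a1, a collagen gene of the tectorial membrane.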

How the data were processed

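The file used was the authors' deposited gene annotation (GTF layout, 1511492 rows), whose start and end positions are in bases. Per the file headers the assembly is GRCm38. No aligner is named in the sources used here. Cell Ranger 2.0.2 is named in the submitters' processing notes, with no role. The file held 0 columns of per-sample values, so GFP and Ikzf2 were not compared, and depth concerns no value here.

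The members and lists were chosen with earlier results of these data known. The rule for named genes took the 8 members, overlapping and neighbouring genes and, per list, the longest and shortest coding sequence. Other genes are named after their values were seen. For each gene the transcript with the longest coding sequence was used (ties by exonic bases, then identifier). Intron phase was the number of coding bases before the intron, modulo 3. The comparisons of phases, composition and copies were added after the data were examined. Sequences came from GENCODE M21, also on GRCm38, where 26 of the 27 transcripts had the same exons. Residues were translated from these and aligned with BLOSUM62 (gap penalties 11 and 1, free end gaps). Copies were searched with BLAST+ 2.17.0. Python 3.11.15, Biopython 1.88, NumPy 2.4.6 and Matplotlib 3.10.9 were used. The code was tested on 200 simulated gene models, and all 200 were read correctly. As alternatives, the M21 models, protein-coding transcripts or partners alone, medians over transcripts, a required overlap of 100 bases and windows of 1000 or 200 bases were tried.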

Additional observations from a re-analysis of the deposited data

How the results depend on the processing

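With the M21 models the median longest 3′ UTR rose from 425.5 to 893.5 bases, the genes overlapped by another gene rose from 3 to 5, and the genes with a same-strand exon in the last 500 bases rose from 0 to 1. Over all protein-coding genes the same values rose from 851 to 961 bases, from 28.7% to 46.6% and from 3.24% to 5.41%. Of the 8 genes, Otogl alone had another longest 3′ UTR in M21, with 1779 bases against 87. Medians over protein-coding transcripts gave 16 exons, 3199.5 coding bases and a 3′ UTR of 407.25 bases, and the transcript with the longest coding sequence gave a 3′ UTR of 227 bases. With protein-coding transcripts only, the median span was 54347.5 bases, and 17 transcripts were counted. The other alternatives left each count within 1.5 times of its main value, and the count on either strand was 2 with an overlap of at least 100 bases, where Strc dropped out. No paired analysis was possible because the GFP and Ikzf2 groups hold 1 library each and their expression was not analysed here. For the same reason no replicate could be left out, and the planned comparison of GFP with Ikzf2 was not run.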

Other observations

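Of the 8 genes, 2 had other models in GENCODE M21. Otogl reached 107760531 there, 1692 bases beyond its end here, with a 3′ UTR of 1779 bases against 87 and AATAAA 20 bases from the new end. Its last 500 bases then lay in 1 exon and held 0 coding bases, against 413 here. The coding intervals were the same in both. Otog gained Otog-202, with 18 exons and 2181 coding bases for 726 amino acids, which ended 1 base before Otog-201, and Otog-203, a retained intron model. The longest 3′ UTR was unchanged in Otog, at 1265 bases, and in the other 6 genes.

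The partners also differed. Gm10754, a protein-coding gene of 315 bases here, was a lincRNA from 97681414 to 97967090 in M21, where it covered all of the last 500 bases of an Epyc transcript. Tecta was overlapped on the opposite strand by Gm47629, an antisense gene from 42385862 to 42390886 whose exons covered 304 coding bases of Tecta. Tectb held Mir6715, a microRNA gene on the same strand from 55192678 to 55192734. Of its bases, 13 lay in the last 500 bases of Tectb-006, a model of 531 bases marked as incomplete at its start. These genes are named after their values were seen.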
